A study of Homo sapiens with 14 samples.

Results

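The data are 2 of the 14 libraries of a set of pooled CRISPR screens on oxaliplatin response in colorectal cancer lines: RKO cells carrying a knockout library, sampled at day 0 and after 20 days of growth without drug. RKO is an established human colon carcinoma line that carries activating mutations of BRAF and PIK3CA and is microsatellite-unstable. In both groups the cells expressed Cas9 after blasticidin selection and carried the Brunello library of single guide RNAs after puromycin selection. They grew in EMEM with serum, and neither group received oxaliplatin. The untreated day 0 and day 20 libraries of SW620 (Cas9, the same guide library, RPMI medium) and of RKO with dCas9-VP64 and the Calabrese activation library are used for side-by-side values only. SW620 is another established colorectal cancer line. The labels name 1 library per condition, do not describe the RKO cells as a clone, and do not say how long before day 0 the guides had been in the cells.

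All 77441 guides entered the comparison: 76441 aimed at 19114 genes and 1000 non-targeting controls that match no human sequence. Sequencing gave 31699260 guide counts at day 0 and 34540094 at day 20, with medians of 352 and 372 counts per guide. A guide's value is the log2 fold of its scaled count at day 20 over day 0, with 5 added to each scaled count. A gene's value is the median over its guides with 30 or more counts at day 0, of which it needed 3. This left 19091 genes measured. A gene is called lost where that median is -1 or lower and gained where it is 1 or higher. There is no replicate library, so these calls are by size and carry no p-value. The guides of a gene are separate perturbations read in the same pair of libraries and are not replicates of growth, and a range over guides describes their spread only. Genes named for a list include its lowest and highest members by a set rule, and further ones were chosen after their values were seen, as illustrations.

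In a pooled knockout screen each cell carries a guide that directs Cas9 to cut 1 gene. The guide is copied with the genome, so its share of the sequenced guides follows the share of cells that descend from that knockout. Guides against genes that cells need for survival or division become rarer with time, and guides against genes that restrain growth become more common. Genes needed by nearly every cultured line run the ribosome, proteasome, spliceosome and replication fork, whereas dependence on a single signalling protein or on respiration differs between lines and media.

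By day 20, 2329 of 19091 genes were lost (12.2%) and 0 were gained (0%). Of the lost genes, 1491 had a median of -2 or lower and 398 of -4 or lower. Every measured guide was at -1 or lower for 1232 genes (6.45% of all). Among the 2235 lost genes with 4 measured guides, all 4 guides were past -1 for 1167, 3 guides for 744 and 2 guides for 324. The median over all genes was 0.01, with the 5th percentile at -2.89 and the 95th at 0.40. The highest gene median was 0.89, so the upper edge lay far nearer to 0 than the lower.

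Control guides set the scale for these values. The 989 measured non-targeting guides had a median log2 fold of 0.43 with an SD of 0.30, and their 5th and 95th percentiles were -0.08 and 0.82. Their counts alone give an SD of about 0.07, so their spread was 4.51 times that of counting. Guides against olfactory receptors, taken as genes not expressed here, had a median of 0.10. Those against 40 liver, muscle, lens and other tissue-restricted genes had 0.09. Expression of these controls in RKO was not measured. Non-targeting guides thus lay 0.34 above olfactory receptor guides, and 0.45 above all targeting guides. Only 708 genes (3.71%) had a median above the non-targeting one. Scaling to the non-targeting guides moves the median of all genes to -0.41, and the part of cutting itself in this offset was not tested.

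Of 374 olfactory receptors 8 were lost, and 7 of these belong to the OR4F family (OR4F21, OR4F29, OR4F16, OR4F5, OR4F17, OR4F4 and OR4F3), at medians from -3.23 to -1.74. OR4F genes are near-identical copies at several chromosome ends, so their guides and counts cannot be assigned to 1 gene with certainty. None of the 40 other control genes was lost.

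**Figure D1:**
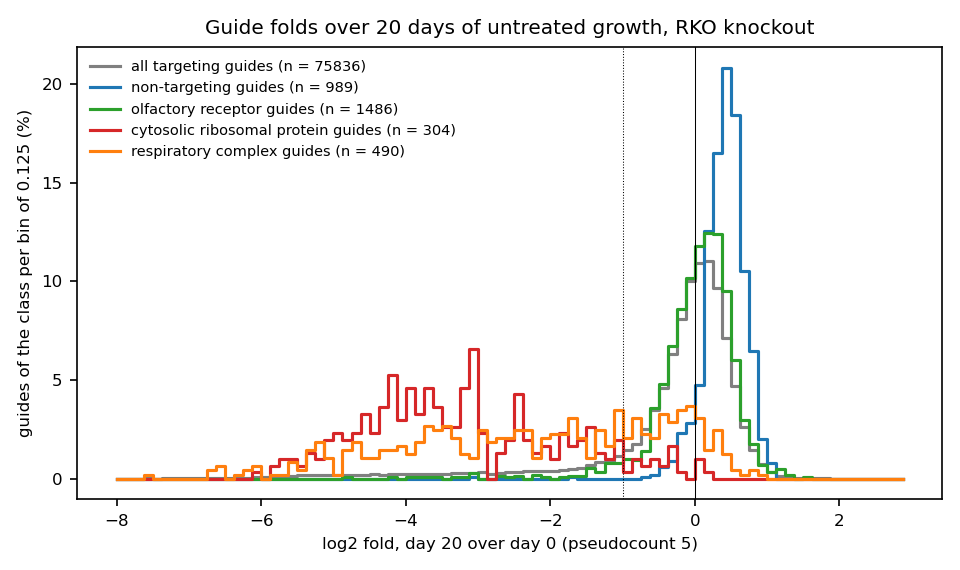
Distribution of guide log2 folds (x axis, day 20 over day 0) as the percent of each guide class per bin (y axis), for all targeting guides, non-targeting guides, olfactory receptor guides, cytosolic ribosomal protein guides and guides against respiratory complexes I to V. The non-targeting peak (median 0.43) lies right of the olfactory receptor peak (0.10), and the ribosomal guides are centred near -3.43.

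The 20 genes with the lowest medians among those lost with every guide were COX15, COA6 and MECR (mitochondrial heme for cytochrome oxidase, its copper site, and mitochondrial fatty acid synthesis), and NEDD8, UBA3, UBA2 and UBL5 (ubiquitin-like proteins and their activating enzymes). DDX54, RTCB, RPP21, U2SURP, EIF6 and POLR2L act on RNA or ribosomes, and RAD9A and GINS2 at the replication fork. TPI1 is a glycolytic enzyme, ATP6V0C a proton pump subunit, ALG13 and GMPPB supply sugar chains, and N6AMT1 is a methyltransferase. The 3 measured guides of COX15 fell from 883, 351 and 321 counts to 0, 0 and 10, and a guide with 5 counts at day 0 was left out. NEDD8, the modifier that activates cullin ubiquitin ligases, had guides at 567, 444, 204 and 333 counts on day 0 and 0, 0, 0 and 16 on day 20. With 3 counts allowed for a 0, the first of these is at least 209-fold lower. UBA3, which activates NEDD8, fell from 376, 372, 364 and 535 counts to 0, 0, 4 and 10. For 733 of the lost genes a guide stood at 0 counts on day 20, and the fold of such a guide is set by its day 0 count. The order of genes whose values rest on such guides has no meaning. These floors cover counting error only, since PCR reads are not independent molecules.

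Genes for making protein were lost almost as a whole. The small ribosomal subunit lost 32 of 32 members, with a median of -3.51, and the large subunit 45 of 47, at -3.17, against 0.01 for all genes. FAU was lowest in the small subunit (-5.34), and RPS29 and RPS7 highest (-2.40 and -1.76). RPL19 and RPL31 were lowest in the large subunit (-5.25 and -4.44). RPL36A (-0.53) and RPL41 (-0.39) were not lost. The 4 guides of RPL19 had 307, 248, 124 and 196 counts at day 0 and 1, 0, 0 and 4 at day 20. Ribosome assembly factors and RNA polymerase I lost 81 of 85, with DKC1 (-5.48), a pseudouridine synthase of ribosomal RNA, lowest and the SUMO protease SENP3 (0.17) highest.

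The enzymes that charge tRNAs had the lowest median of all 87 lists (-4.27). All 20 synthetase genes of that list were lost, from AARS at -5.93 to WARS at -1.55. AARS guides ranged from -6.96 to -0.42. The 3 members that were not lost, EEF1E1 (-0.56), AIMP2 (-0.24) and AIMP1 (0.22), are scaffold proteins of the synthetase complex without charging activity. Translation factors lost 35 of 40, at -2.72. EIF6 (-5.84) and the cap-binding protein EIF4E (-5.50) were lowest, and the release factor GSPT1 (-0.31) highest.

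Guides against ribosomal proteins were already scarce on day 0. Their median was 129.5 counts against 348 for all targeting guides, a log2 ratio of -1.43, and 5 against 367 on day 20. In SW620 the same guides stood at 671.5 against 766 on day 0, a ratio of -0.19. Guides against the respiratory complexes were closer to the rest on day 0 in RKO, at 317 counts (-0.13). Non-targeting guides were the most abundant of these classes on day 0, at 810 counts in RKO and 1600 in SW620. A fold from day 0 does not hold any change before it, and the plasmid pool is not analysed here.

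RNA processing and protein turnover were also lost in most members. The core spliceosome lost 67 of 69 members at a median of -3.16 (SNRPD2 -5.39 and PRPF19 -5.20 lowest, SF3A3 -0.79 and SYF2 -0.40 not lost). The RNA exosome, which degrades RNA from its end, lost 12 of 12 at -3.35, and cleavage, polyadenylation and export factors 24 of 27 at -2.41. The proteasome lost 36 of 37 at -2.87, with the assembly factor PSMG3 (-5.35) and PSMA7 (-4.28) lowest and the ubiquitin receptor ADRM1 (-0.86) the exception. The 5 immunoproteasome and testis subunits, which replace their housekeeping paralogs in other cells, ranged from -0.12 (PSMB11) to 0.42 (PSMA8), and 0 were lost. Chaperonin and prefoldin lost 13 of 14, and the neddylation, cullin and SUMO list 27 of 30. In that list the scaffold cullins divided: CUL3 (-1.93), CUL4A (-1.79) and CUL2 (-1.15) were lost, and CUL1 (-0.63), CUL5 (-0.25) and CUL4B (-0.09) were not.

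Transcription, replication and mitosis followed with wider spread. RNA polymerase II and its general factors lost 45 of 53 at -2.25 and RNA polymerase III 22 of 24 at -2.32, whereas core Mediator lost 18 of 25 at -1.47. In the Mediator kinase module MED12 was lost (-3.12), and CCNC (-0.71), CDK19 (0.14), MED13L (0.24) and MED13 (0.49) were not. Replication origin and fork proteins lost 46 of 57 at -2.92, with GINS2 (-5.71) and the helicase subunit MCM7 (-5.39) lowest. Kinetochore and spindle genes lost 42 of 54 at -1.71, led by the checkpoint gene BUB3 (-5.51) and CENPN (-4.92). In cohesin the paralogs STAG2 (-0.50) and STAG1 (-0.20) were not lost, and their shared partner SMC3 was (-3.71). The V-ATPase, which acidifies lysosomes, lost 15 of 18 at -2.98, and the nuclear pore and transport list 35 of 42 at -2.13.

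**Figure D2:**
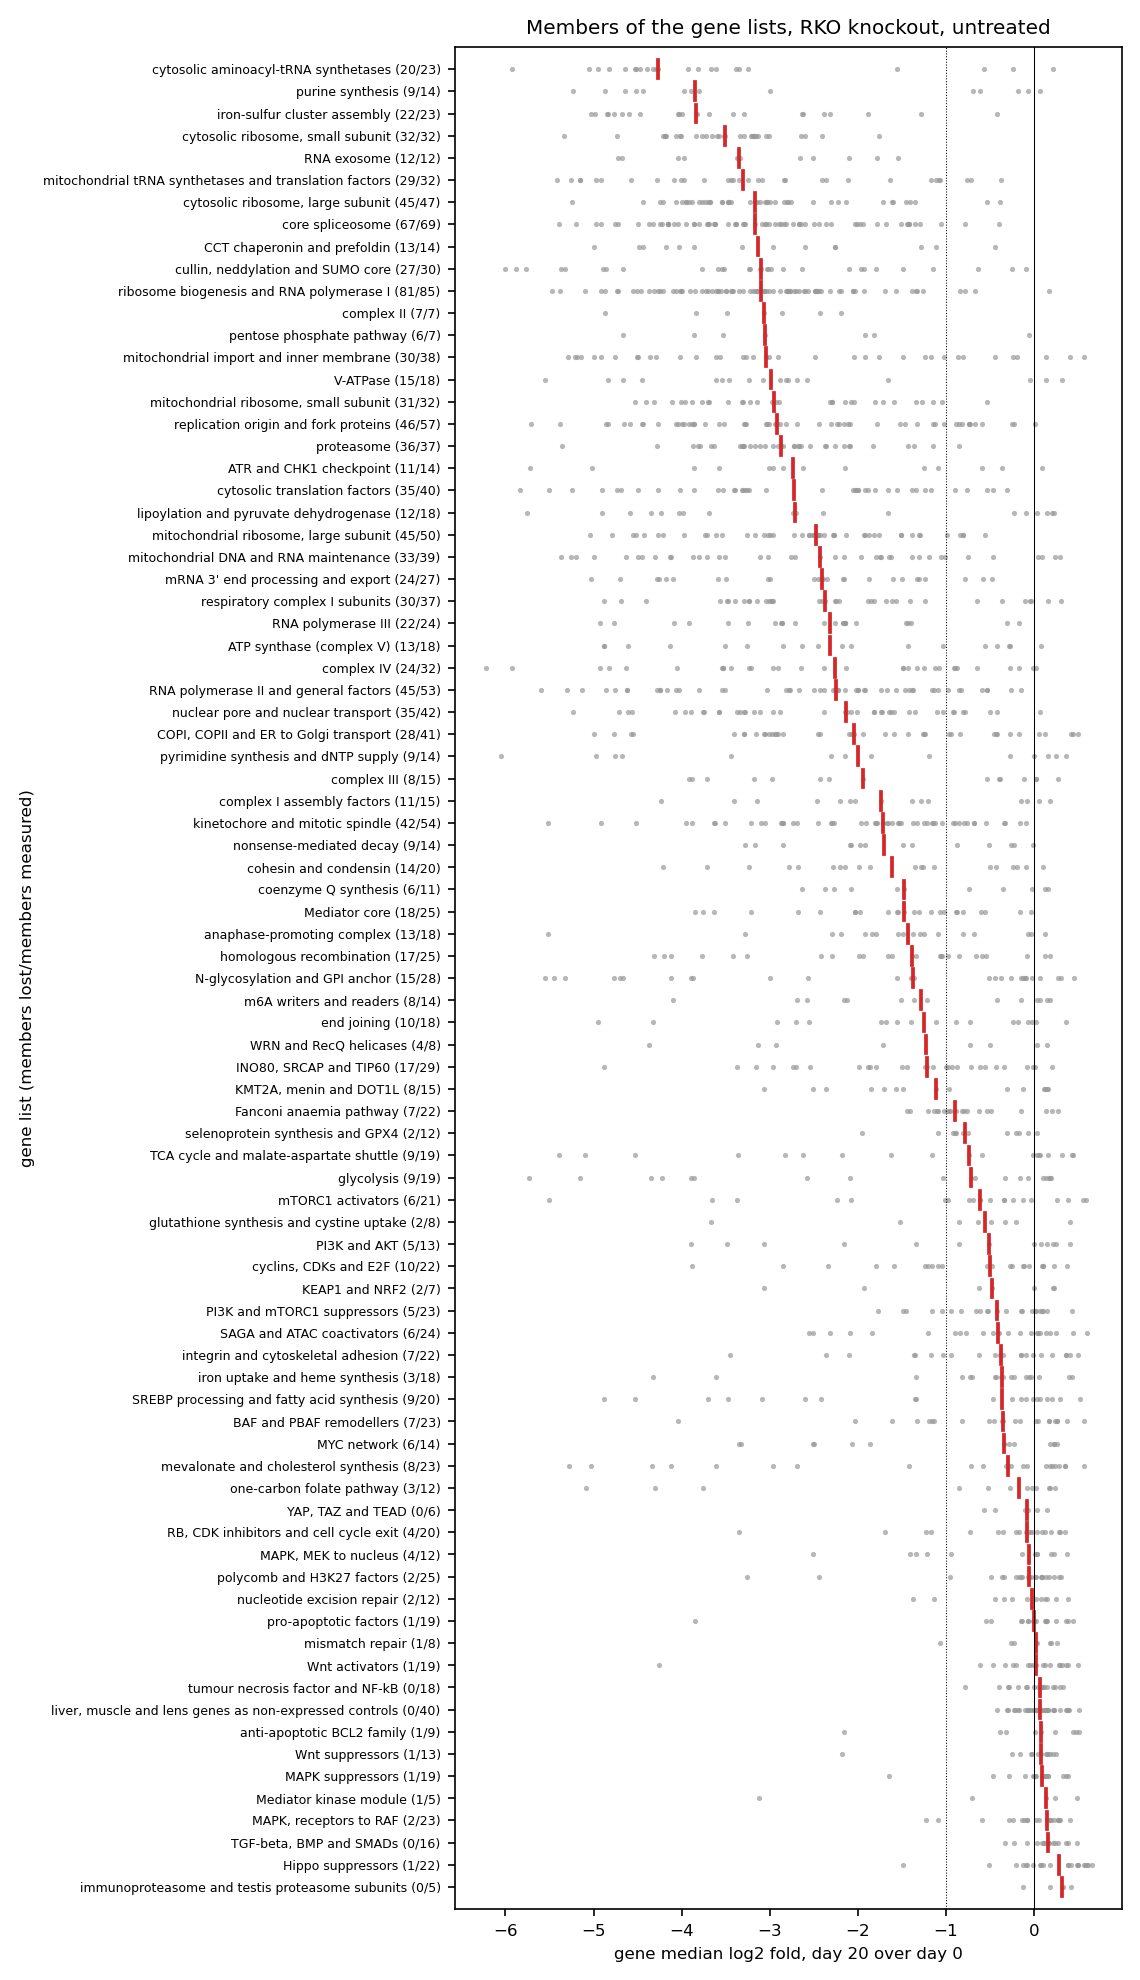
Each row is 1 of 83 gene lists, each grey point the median log2 fold of a member gene (x axis) and each red bar the median of the list, sorted by that median, with members lost of members measured in brackets. The dotted line marks -1. Lists for translation, splicing, iron-sulfur assembly and mitochondrial translation lie at the top, and the Hippo suppressors (median 0.28) and immunoproteasome subunits (0.32) at the bottom.

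Mitochondrial genes were lost in most lists as well. Mitochondria make their own ribosomes and translate a handful of proteins of the respiratory chain, which moves electrons from NADH and succinate to oxygen and drives ATP synthesis. Over 15 mitochondrial lists, 310 of 386 genes were lost (80.3%), at a median of -2.47. The mitochondrial ribosome lost 76 of 82, with a median of -2.51 and a highest member of -0.54 (CHCHD1). Mitochondrial tRNA synthetases and translation factors lost 29 of 32 at -3.30, among them IARS2 (-5.42) and HARS2 (-5.26). The maintenance of mitochondrial DNA and RNA lost 33 of 39 at -2.43. There the polymerases POLG2 (-5.37) and POLRMT (-5.25) were lowest, and the nucleoside kinase TK2 (0.24) and FASTKD2 (0.30) highest.

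The 5 complexes of oxidative phosphorylation, with their assembly factors, lost 93 of 124 genes at a median of -2.25. Complex I, the NADH dehydrogenase, lost 30 of 37 subunits at -2.38, with the core subunits NDUFS1 (-4.88) and NDUFV1 (-4.69) lowest. NDUFS1 guides went from 221, 900, 218 and 231 counts to 0, 20, 6 and 16. NDUFV1 guides went from 452, 395, 431 and 321 counts to 7, 7, 21 and 45. The 7 subunits that were not lost were NDUFA5 (-0.64), NDUFS6 (-0.37), NDUFS4 (-0.11), NDUFV3 (-0.05), NDUFA7 (-0.04), NDUFB1 (0.16) and NDUFA12 (0.30), all accessory rather than core subunits.

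Complex II, succinate dehydrogenase, lost 7 of 7 at -3.06, from SDHB (-4.87) to the assembly factor SDHAF3 (-2.19). Of these, 5 were lost with every guide, and SDHB guides ranged from -5.82 to -0.51. Complex III lost 8 of 15: its core subunits UQCRC1 (-3.92) and UQCRC2 (-3.88) were lowest, and the factors LYRM7 (0.02) and TTC19 (0.27) highest. Complex IV, cytochrome oxidase, lost 24 of 32 at -2.26, and COX8A (0.02) was its highest member. ATP synthase lost 13 of 18 at -2.32, with the catalytic subunits ATP5A1 and ATP5B both at -4.88. Its c-ring genes ATP5G1 (-0.43), ATP5G2 (-0.28) and ATP5G3 (0.08), which encode the same mature protein, were not lost. Coenzyme Q synthesis lost 6 of 11, with COQ2 (-2.63) and COQ5 (-2.37) lowest.

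Iron-sulfur clusters, cofactors of complexes I to III and of DNA polymerases, are built by a dedicated pathway that lost 22 of 23 members at -3.84. NUBP1 (-5.03) and HSPA9 (-4.98) were lowest, and CIAPIN1 (-0.42) was the exception. Lipoic acid, the cofactor of pyruvate and oxoglutarate dehydrogenase, is made from mitochondrial fatty acid synthesis. MECR (-5.76), LIAS (-4.90), LIPT1 (-4.34), MCAT (-4.24), LIPT2 (-4.03) and OXSM (-3.98) of that route were lost. So were OGDH (-4.59), DLST (-3.69), PDHB (-2.73) and PDHA1 (-2.70), the enzymes that carry it or their partners. The pyruvate carrier genes MPC1 (0.15) and MPC2 (0.03) were not. The 4 MECR guides went from 618, 507, 625 and 396 counts to 4, 3, 11 and 8.

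In the tricarboxylic acid cycle 9 of 19 genes were lost. FH, fumarate hydratase, was lowest (-5.39): its guides went from 561, 197, 192 and 220 counts to 0, 0, 0 and 31. IDH2 (-5.10), CS (-4.53), IDH3A (-3.36) and MDH2 (-2.62) were also lost. The cytosolic enzymes of the malate-aspartate shuttle had the highest values of the list, MDH1 at 0.43 and GOT1 at 0.45. IDH3B (0.16) and IDH3G (0.32), which encode the other subunits of the enzyme of IDH3A, were not lost.

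**Figure D3:**
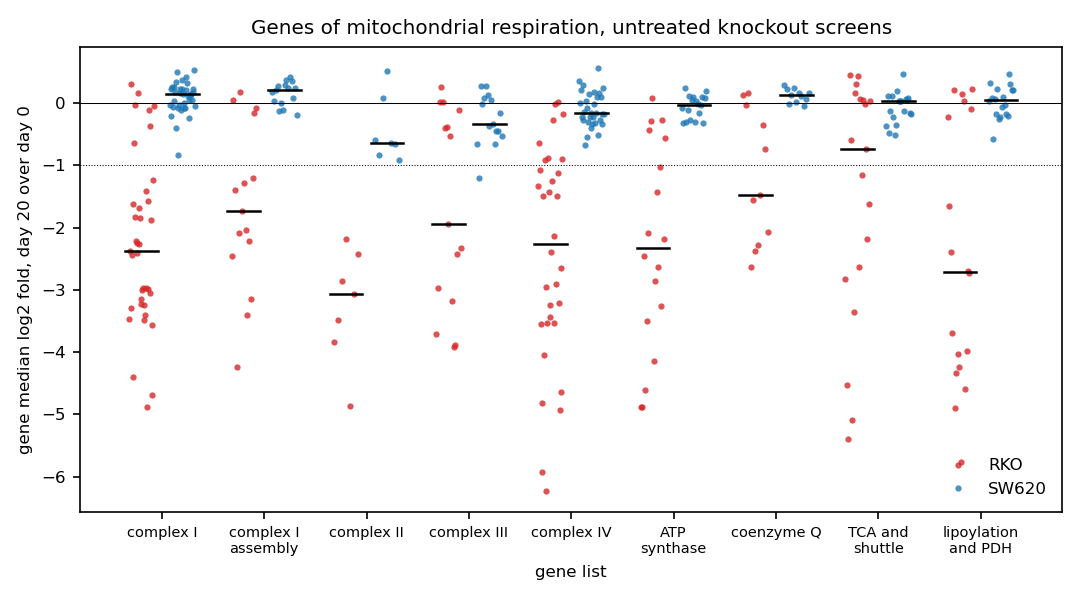
Gene median log2 folds (y axis) of the members of 9 lists of mitochondrial respiration (x axis) in untreated RKO (red) and SW620 (blue) knockout screens, with a black bar at each list's median and a dotted line at -1. RKO members of complex I spread from -4.88 to 0.30 around -2.38, and the SW620 median of the same genes is 0.14.

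Glycolysis lost 9 of 19 genes. TPI1 (-5.73) and ALDOA (-5.15) were lowest, and GPI (-3.90), GAPDH (-3.86) and PGK1 (-4.22) were lost. LDHA (0.18) and LDHB (0.10), the lactate dehydrogenase subunits, and PFKL (0.17), PFKP (0.14) and PFKM (-0.68), the phosphofructokinases, were not. HK2 was at -1.03 and HK1 at 0.19. The pentose phosphate pathway, a source of NADPH and ribose, lost 6 of 7, with PGD (-4.67) and RPE (-3.86) lowest and TALDO1 (-0.06) kept.

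De novo purine synthesis lost 9 of 14 at -3.84, with PAICS (-5.24) and ADSL (-4.87) lowest, while the paralogs PRPS1 (-0.19) and PRPS2 (0.07) and IMPDH1 (-0.07) and IMPDH2 (-0.69) were not lost. In the pyrimidine list DUT (-6.05), which removes dUTP, and CAD (-4.98) were lowest, and TYMS (0.00), thymidylate synthase, and DCTD (0.37) were not lost. DUT guides ranged from -6.95 to -0.43. In the folate list 3 of 12 genes were lost, among them MTHFD1 (-4.30) and FPGS (-3.75), and SHMT1 (0.18), SHMT2 (-0.52), MTHFD2 (-0.27) and SLC25A32 (0.24) were not.

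In lipid synthesis, the mevalonate route divided at its branch point. GGPS1 (-5.28), which makes geranylgeranyl diphosphate, was lost together with the upstream enzymes PMVK (-5.02), HMGCS1 (-4.34) and MVK (-4.12). The sterol branch was not, with FDFT1 at 0.36 and LSS at 0.57, the highest of the list. In the fatty acid list SCD (-4.89), the desaturase, and the SREBP protease MBTPS1 (-4.53) were lowest, FASN was at -1.34, and ELOVL1 (0.29) and ACSL1 (0.53) were highest. SREBF1 (-0.47) and SREBF2 (0.15), the factors that these proteases release, were not lost.

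In redox and iron metabolism the share lost was 2 of 8 for glutathione synthesis, 2 of 12 for selenoproteins and 3 of 18 for iron and heme, against 12.2% of all genes. GCLC (-3.67), the first enzyme of glutathione synthesis, and GSS (-1.52) were lost, and GSR (0.40) was not. GCLC guides ranged from -4.30 to 0.43. GPX4, which detoxifies lipid peroxides, was at -0.07 in the selenoprotein list. TFRC (-4.33), the transferrin receptor, and UROD (-3.61) were lowest among the iron and heme genes. In N-glycosylation, ALG13 (-5.55) and ALG2 (-5.45) were lowest and 15 of 28 lost. PGM3 (-5.32), GNPNAT1 (-4.77) and GFPT1 (-4.70), which supply UDP-N-acetylglucosamine, were also lost, whereas the catalytic paralogs STT3A (-0.02) and STT3B (0.45) were not.

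PIK3CA and BRAF were both lost. PIK3CA, the catalytic subunit of phosphoinositide 3-kinase that is mutated in RKO, had a median of -3.07. Its 4 guides went from 172, 143, 125 and 341 counts to 0, 12, 14 and 61. Its paralog PIK3CB had 157, 750, 539 and 823 counts at day 0 and 115, 800, 690 and 1260 at day 20, a median of 0.08. Every PIK3CA guide was below every PIK3CB guide. PIK3CD (0.14), AKT1 (-0.51) and AKT2 (0.01) were not lost, and PDPK1 (-3.89), MTOR (-3.48), MLST8 (-2.16) and RICTOR (-1.34) were. Of 21 mTORC1 activators 6 were lost (28.6%, against 12.2% of all genes). EIF4E and RPTOR (-3.65) were lowest, RHEB was at -2.24, and FLCN (0.55) and RRAGD (0.59) were highest. Of the 9 Rag GTPase and Ragulator genes RRAGC (-1.01) was called, a share near that of all genes. The median of the 9 was -0.61.

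BRAF, the mutated kinase of the MAPK cascade in RKO, was lost by a smaller margin, at -1.23. Its guides went from 253, 249, 388 and 168 counts to 102, 106, 194 and 138, so 3 of 4 were past -1. Its relative ARAF (0.05) was not lost. One step down, MAP2K1 was at -0.94, with guides going from 626, 303, 165 and 162 counts to 332, 162, 98 and 123. Its paralog MAP2K2 was at -0.14, with guides going from 265, 191, 269 and 382 to 141, 182, 283 and 629. The guide ranges of these 2 genes overlap. The transcription factors FOSL1 (-1.34), JUN (-1.40) and MYC (-2.51) at the end of the cascade were lost.

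Above BRAF, NRAS (0.18), HRAS (-0.08) and the receptors EGFR (0.29) and IGF1R (0.40) were not lost. PTPN11, a phosphatase that relays receptor signals, was lost at -1.09, with guides from -2.14 to 0.34. In all, 2 of 23 genes from receptors to RAF, 4 of 12 from MEK to the nucleus and 1 of 19 MAPK suppressors were lost, where 12.2% of all genes were. That suppressor was DUSP5, a nuclear phosphatase that acts in this cascade, at -1.64. Its guides went from 270, 651, 432 and 794 counts to 53, 170, 200 and 384, and all 4 were past -1. Its relatives DUSP6 (0.02) and DUSP4 (0.09) were not lost, and NF1 (-0.46) and RASAL2 (0.38) mark the rest of the range.

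WRN, a RecQ helicase on which microsatellite-unstable lines are known to depend, was lost in RKO at -2.93. Its guides went from 192, 157, 265 and 319 counts to 0, 16, 38 and 72. BLM (-1.72), TOP3A (-4.37) and RMI1 (-3.14), which form a complex that resolves DNA joints, were also lost, and RECQL (0.03) and RECQL5 (0.15) were not. RMI1 guides ranged from -7.30 to -0.01 and BLM guides from -5.51 to -0.44. Of the 8 mismatch repair genes only the exonuclease EXO1 was called (-1.07), a share of 12.5% beside 12.2% of all genes. MSH6 was at -0.22.

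Among other repair genes, homologous recombination lost 17 of 25 at -1.38, with RAD51C (-4.31) and RAD50 (-4.20) lowest, BRCA2 at -1.38, BRCA1 at -1.34, and RAD52 (0.13) and EME1 (0.19) highest. The ATR checkpoint lost 11 of 14 at -2.74, with RAD9A (-5.72) and RAD1 (-5.02) of the checkpoint clamp lowest. In end joining the Ku proteins XRCC6 (-4.95) and XRCC5 (-4.32) were far below their pathway partners PRKDC (-1.68) and LIG4 (-1.11). XRCC6 guides went from 1008, 253, 484 and 356 counts to 5, 2, 17 and 68. The Fanconi anaemia pathway had 7 of 22 lost, with a median of -0.90: FANCM (-1.44) was its lowest member and C1orf86 (0.28) its highest. Nucleotide excision repair had 2 of 12 lost, ERCC1 (-1.38) and its partner ERCC4 (-1.13), with a median of -0.03. That share (16.7%) is close to the 12.2% of all genes. ERCC4 guides ranged from -2.77 to 0.89.

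MDM2, a ubiquitin ligase, was lost, with 3 of 4 guides past -1. It had guides going from 92, 132, 539 and 151 counts to 0, 13, 241 and 159, a median of -2.17 over a range from -4.35 to -0.07. Its relative MDM4 was at -0.97. The deubiquitinase USP7 (-4.25), HUWE1 (-3.33), TRIM28 (-2.70), RFWD2 (-2.10) and the nuclear exporter XPO1 (-4.57) were lost, and the phosphatase PPM1D was at 0.21. USP7 guides went from 364, 381, 507 and 544 counts to 1, 7, 49 and 77.

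CDKN1A, an inhibitor that stops the cell cycle, was at -0.09, with guides from -0.38 to 0.23. FDXR (-2.63), a mitochondrial reductase that also serves iron-sulfur assembly, was lost, with guides from -5.19 to 0.32. ATM (-2.61), the kinase that signals DNA breaks, the acetyltransferase KAT5 (-1.79), the methyltransferase PRMT5 (-4.12) and the ribosomal proteins RPL5 (-3.74) and RPL11 (-3.92) were lost. CHEK2 (-0.12), USP28 (-0.16) and CDKN2A (0.09) were not. KAT5 guides ranged from -4.97 to 0.11. ATM guides went from 511, 690, 413 and 613 counts to 30, 112, 76 and 283, all past -1.

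**Figure D4:**
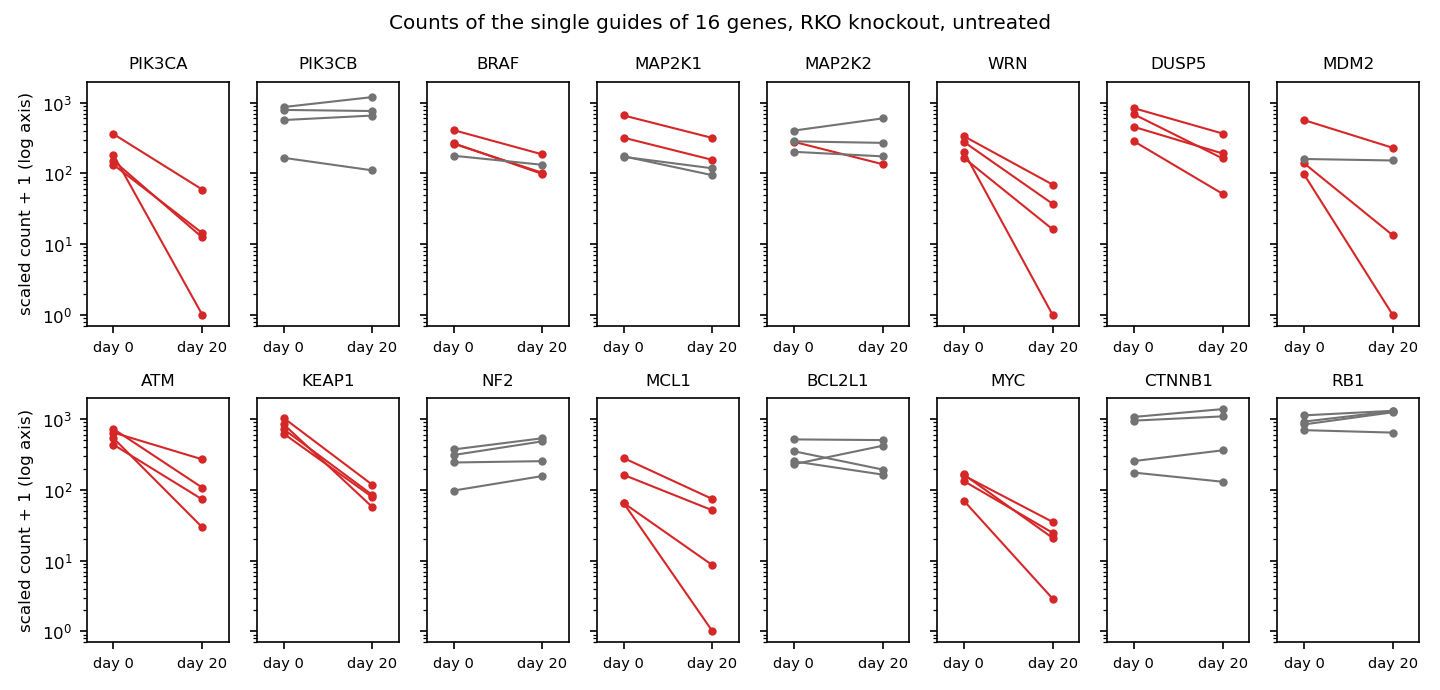
Scaled counts plus 1 (log y axis) of each guide of 16 genes at day 0 and day 20 in untreated RKO, each line 1 guide, red where its log2 fold was -1 or lower. PIK3CA (-3.07), WRN (-2.93), DUSP5 (-1.64), ATM (-2.61), KEAP1 (-3.07), MCL1 (-2.16) and MYC (-2.51) have 4 red guides each, and PIK3CB (0.08), NF2 (0.58), BCL2L1 (-0.32), CTNNB1 (0.28) and RB1 (0.35) have none.

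Among genes that restrain growth elsewhere 21 of 162 were lost (13.0%), near the 12.2% of all genes, so the losses that follow are values of single genes. KEAP1, which directs the stress factor NFE2L2 to degradation, was at -3.07: its guides went from 807, 991, 688 and 594 counts to 59, 123, 88 and 82. Its ligase partner CUL3 was lost too (-1.93), while NFE2L2 was at 0.22. FBXW7, a ubiquitin ligase subunit that removes MYC and cyclin E, was at -3.35, and its guides ranged from -4.27 to 0.46. In the RB and cell cycle exit list FBXW7, LIN52 (-1.69), LIN9 (-1.23) and DYRK1A (-1.17) were lost, 4 of 20, and RB1 was at 0.35. LIN9 guides ranged from -3.35 to 0.24. RB1 guides had 664, 1075, 877 and 800 counts at day 0 and 678, 1379, 1362 and 1314 at day 20. Outside the genes that restrain growth, the cell cycle kinases CDK4 (-1.24), CDK6 (-1.05) and CDK2 (-1.16) were all just past the threshold. CDK6 guides ranged from -2.79 to 0.03.

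Of 23 suppressors of PI3K and mTORC1 5 were lost: NPRL2 (-1.77), NPRL3 (-1.04), TSC2 (-1.16), STK11 (-1.45) and its scaffold CAB39 (-1.49). The highest guide stood at -0.64 for NPRL2, 0.24 for NPRL3 and -0.03 for TSC2. STK11 guides went from 183, 110, 167 and 735 counts to 11, 37, 71 and 327, all past -1. PHLPP2 (0.43) was highest. BAP1, a tumour suppressor deubiquitinase, was at -2.44. In the Wnt pathway, where CTNNB1 is the effector, CTNNB1 was at 0.28, APC at 0.16 and AXIN1 at 0.21. The kinase CSNK1A1 was the only one of 13 Wnt suppressors lost (-2.18), and USP7, also counted above, the only one of 19 activators.

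Survival genes of the BCL2 family differed within the family. MCL1 was lost (-2.16), with guides going from 61, 61, 267 and 154 counts to 0, 8, 77 and 53. BCL2L1 was at -0.32, with guides going from 334, 240, 491 and 218 to 203, 172, 531 and 441, and BCL2 at 0.24. Of 19 pro-apoptotic genes 1 was lost (5.26%), CYCS (-3.85), which encodes cytochrome c and so serves respiration as well. BAX (-0.14), BAK1 (-0.07) and APAF1 (0.44) were not. In adhesion, 7 of 22 genes were lost (31.8%, against 12.2% of all genes). CDC42 (-3.45) and the focal adhesion kinase PTK2 (-2.36) were lowest, ITGAV was at -2.10, and ROCK2 (0.40) and ROCK1 (0.50) were highest. No gene of the 18 in the tumour necrosis factor and NF-kB list or the 16 in the TGF-beta list was lost, where 12.2% of all genes were. In lists this short, counts of 0 or 1 are not read as results about the pathways.

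The m6A methyltransferase complex, which marks messenger RNA, lost all 7 writer genes measured at a median of -2.16, from METTL14 (-4.10) to RBM15 (-1.21). Of the readers YTHDC1 was lost (-1.36), and the erasers FTO (0.07) and ALKBH5 (0.14) were not. The chromatin lists lost 39 of 115 genes (33.9%, against 12.2% of all). INO80, SRCAP and TIP60 lost 17 of 29, led by the shared ATPases RUVBL1 (-4.89) and RUVBL2 (-3.38). In the BAF list 7 of 23 were lost, with ACTL6A (-4.04) and ACTB (-2.03) lowest. ARID1B was lost (-1.33) and its paralog ARID1A was at 0.26. Of 25 polycomb and related genes RBBP4 (-3.26) and BAP1 were lost, and EZH2 was at -0.36. MEN1 (-1.11) and KMT2B (-1.49) were lost, and KMT2A was at 0.11.

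No gene reached 1, 354 genes (1.85%) had a median of 0.5 or higher, and 14 had every guide there. Of the 87 lists, 15 had a median above 0 and 0 above the non-targeting median. Among single non-targeting guides 38.2% were at 0.5 or higher, so a value of that size is common in single guides without a target. How often a median of several such guides, or every one of them, reaches 0.5 was not computed. The most uniform of these genes was GNAI1, an inhibitory G protein subunit. Its guides went from 231, 253, 259 and 452 counts to 438, 514, 527 and 927, a median of 0.87 with a lowest guide of 0.77. GUCA1A (0.77) and PJA1 (0.69) were among the others, and the highest median of all, NABP2 (0.89), had guides from 0.36 to 0.96.

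The Hippo pathway holds back the growth coactivators YAP1 and WWTR1, and its suppressor genes had the highest median of the lists with more than 5 members, 0.28. Of 22, 7 were at 0.5 or higher (1.85% of all genes were) and 15 above 0 (51.7% of all). That is 68.2% above 0, beside 65.2% of olfactory receptors and 70% of the tissue-restricted control genes, of which 9 of 374 and 1 of 40 were at 0.5 or higher. VGLL4, which competes with YAP1, was highest (0.65), with guides going from 458, 219, 589 and 238 counts to 580, 337, 1171 and 512. AMOTL2 (0.61), MOB1A (0.61), NF2 (0.58), KIRREL (0.57), AMOTL1 (0.50) and SAV1 (0.50) were the others at that level. NF2 guides had 231, 354, 295 and 92 counts on day 0 and 267, 564, 510 and 164 on day 20. The list's CAB39 (-1.49), shared with the STK11 complex, was lost, and the kinases STK3 (-0.52) and LATS1 (-0.21) were below 0. Scaled to non-targeting guides, the list's median is -0.15 and 8 of 22 members lie above 0, so the direction rests on the guides taken as unchanged. YAP1 (-0.44) and the DNA-binding factor TEAD1 (-0.57), with which it acts, were not lost.

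The same guides in untreated SW620 gave fewer losses. There 261 of 19100 genes were lost (1.37%) and 0 gained. Of the 2329 genes lost in RKO, 244 (10.5%) were also lost in SW620, and they are 94.6% of the 258 SW620 losses among genes measured in both lines. The genes lost in RKO had a median of -2.51 there and -0.47 in SW620, where 88.3% of them were below 0 against 49.2% of all genes. Non-targeting guides lay 0.34 above olfactory receptor guides in RKO and 0.12 in SW620. With 1 library per line, day and medium, the lines cannot be told apart from medium, time in culture or library.

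The SW620 level differed by list, and a median near 0 there does not mark a wider gap between the lines. The enzymes that charge tRNAs were at -4.27 in RKO and -0.64 in SW620. The large ribosomal subunit had medians of -3.17 in RKO and -0.93 in SW620, and the spliceosome -3.16 and -0.58. Complex I, by contrast, was at -2.38 in RKO and 0.14 in SW620, its assembly factors at -1.74 and 0.21, coenzyme Q synthesis at -1.47 and 0.13, and lipoylation and pyruvate dehydrogenase at -2.72 and 0.05. Of 124 genes of the respiratory complexes 93 were lost in RKO and 1 in SW620. Calls were fewer in SW620 for other lists too. The proteasome lost 36 of 37 in RKO and 5 in SW620, and the spliceosome 67 of 69 and 11. The mitochondrial ribosome, at medians of -2.51 and -0.47, lost 76 of 82 and 5. Complex II was at -3.06 and -0.63. All RKO guides lay below all SW620 guides for 1259 of the 2329 genes lost in RKO, so such separation was common. The 10 widest gaps among these genes were differences from -5.70 to -5.32. MECR, COX15, COA6, U2SURP, N6AMT1, NEDD8, PGM3, UBA3 and MTCH2 were among the 10. Where guides of such a gene stood at 0 counts on day 20, the gap is set by the day 0 count and its rank has no meaning. MECR was at -5.76 in RKO and -0.06 in SW620. PGM3 was at -5.32 and 0.08.

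**Figure D5:**
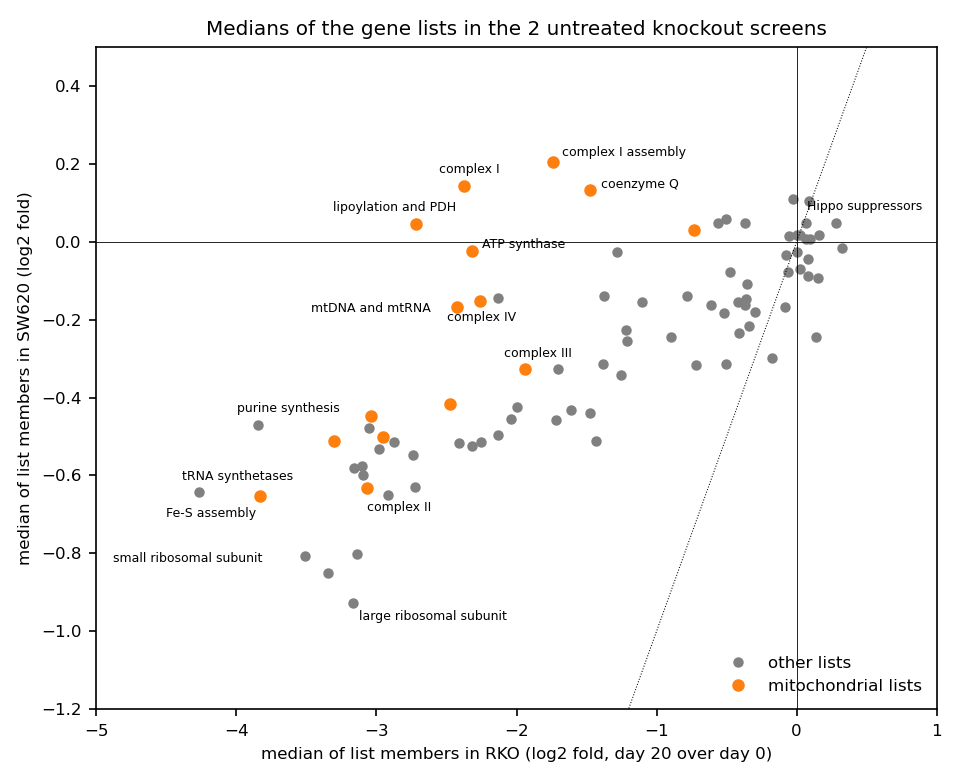
Median log2 fold of each gene list in untreated RKO (x axis) and SW620 (y axis, on a stretched scale), with mitochondrial lists in orange and a dotted line where both are equal. The ribosomal lists are low in both lines (large subunit -3.17 and -0.93), and complex I is low in RKO (-2.38) and near 0 in SW620 (0.14).

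The genes described above stood as follows in SW620. PIK3CA was at 0.13 in SW620, WRN at 0.13, BRAF at 0.39, MDM2 at 0.10 and KEAP1 at -0.44, against -3.07, -2.93, -1.23, -2.17 and -3.07 in RKO. MYC was low in both, at -1.51 in SW620. MCL1 and BCL2L1 stood in opposite order by median: -2.16 and -0.32 in RKO, -0.22 and -1.31 in SW620. BCL2L1 guides overlapped between the lines, from -0.85 to 0.86 in RKO and from -3.41 to -0.06 in SW620. MCL1 guides did not overlap, from -3.79 to -1.59 and from -0.60 to 0.22, as for 1259 of the 2329 genes lost in RKO. CTNNB1 was at 0.28 in RKO and -0.87 in SW620. Of 14 genes lost in SW620 and not in RKO, only PPP1R15B, a subunit that reverses a brake on translation, had all its guides apart, at 0.39 in RKO and -1.03 in SW620.

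The activation screen raises a gene's expression with dCas9-VP64 instead of cutting it. With that library 156 of 18778 genes were lost over the same 20 days (0.831%) and 0 gained (0%). Of 2190 genes lost on knockout with an activation value, 17 (0.776%) were lost on activation. CDKN1A was at -0.09 on knockout and -1.17 on activation, CDKN2C at -0.21 and -2.27, and TNFRSF10B, a death receptor, at 0.06 and -3.44. VGLL4 and AMOTL2, high on knockout, were at -0.82 and -2.19 on activation, while NF2 was at 0.44. Over the 22 Hippo suppressors the activation median was -0.28 and 2 were lost, where 0.831% of all genes were.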

How the data were processed

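For each screen the authors deposited raw counts per numbered guide and a second table of a normalized signal. Each column of the second is the count column times a constant up to rounding, by a method that the labels do not state. The submitters' processing notes list cutadapt 4.0 and MAGeCK 0.5.7 without settings. Gene symbols are those of the files, and no coordinates are given. Guide sequences are not analysed here.

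Each library was divided by its median-ratio size factor over guides, and log2 folds were taken with a pseudocount of 5 (Python, pandas, numpy). Guides needed 30 counts at day 0, and genes 3 such guides (2 for activation). The fold code was tested on simulated data. The gene lists and named genes were chosen with earlier results of these data known. Named are the 20 lowest and highest genes with every guide past 1, the 2 lowest and highest members of a list where it is described, every called member of the MAPK, PI3K and mTORC1 suppressor, Hippo, RB, mismatch repair, WRN and some other lists, genes of defining role, and the 10 widest gaps between lines each way; some of these genes are not reported here. No column was left without a sample (0). With 1 library per condition no test was run. The 11 alternatives changed pseudocount, scaling, guide filter, summary and threshold.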

Additional observations from a re-analysis of the deposited data

Results flagged for a closer look

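Of 19091 genes measured in both lines, 25 had every guide at -1 or lower in RKO and every guide above 0 in SW620. In RKO 1232 genes had every guide at -1 or lower, and the difference between the lines was not tested. The values below are RKO minus SW620 medians on the log2 scale. Genes of respiration or pyruvate oxidation, grouped after their values were seen, were PET117 (-5.02), NDUFV1 (-4.86), NDUFB4 (-3.61), NDUFS5 (-3.19), PDHA1 (-3.17), PDHB (-3.05), NDUFC2-KCTD14 (-2.79), SDHAF3 (-2.70), ATP5SL (-2.57), COQ6 (-2.44), NDUFA6 (-2.17), DLAT (-1.97) and NDUFB11 (-1.90). Sugar chain and nucleotide sugar genes were GNPNAT1 (-4.96), MPI (-3.22) and NGLY1 (-2.43). The others were ASNS (-4.90), which makes asparagine, PSMG2 (-3.47), PITRM1 (-3.10), PPP2R2A (-2.83), TDP2 (-2.68), MLST8 (-2.38), ASF1A (-2.25), FBXL18 (-1.46) and DHRSX (-1.37). RKO grew in EMEM and SW620 in RPMI, per the labels, and line and medium cannot be told apart.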

How the results depend on the processing

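No paired analysis was possible because each condition has 1 library. The count of lost genes stayed between 2150 and 3211 under 10 of the 11 alternatives, and 0 genes were gained under 10 of them. A threshold of 2 gave 1491 lost genes and 538 with every guide, and a threshold of 0.5 gave 354 gained genes and 14 with every guide, by construction of the threshold. Scaling to non-targeting guides gave 2995 lost genes, including all 2329, moved the median of all genes to -0.41, and raised the genes lost in both lines from 244 to 505, since both lines' values move down. The authors' normalized values gave 2226 lost genes and a median of all genes of 0.11. Lists with 50% or more of members lost numbered 48, with a range of 33 to 57 over the alternatives. No list or named gene at -1 or lower changed sign under the pseudocount, scaling, filter and summary alternatives, which most of these could hardly bring about. Sizes did move, counted as a shift of at least the non-targeting SD of 0.30. Scaling to non-targeting guides moved 327 named genes and 85 of 87 list medians. A pseudocount of 20 moved 149 named genes and 26 list medians, and a pseudocount of 1 moved 114 and 9. Of the 15 lists with a median above 0, 0 stayed above it when scaled to non-targeting guides and 13 with 100 or more counts at day 0. Depth limits the lowest values: a guide at 352 counts on day 0 cannot show a log2 fold much below -6 with a pseudocount of 5. Leaving out a replicate does not apply.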
